A study of Mus musculus with 21 samples.

Results

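The natriuretic peptide system of the heart was followed in mouse left ventricle through 8 genes chosen by name: the peptides Nppa, Nppb and Nppc, the receptors Npr1, Npr2 and Npr3, and the processing proteases Corin and Furin. All 8 had a row among the 24054 genes of the expression table, and 7 passed the filter on low counts that left 14135 genes for testing. The exception was Nppc.

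Expression was measured by sequencing of total RNA from left ventricular myocardium of C57BL/6J mice, with 1 library per ear-tagged animal. There were 5 mice with transverse aortic constriction (TAC, a surgical narrowing of the aortic arch that raises the pressure load on the left ventricle) given the PDE5A inhibitor sildenafil (TAC+PDE5A-I), 6 with TAC given the PDE9A inhibitor PF-04449613 (TAC+PDE9A-I), 5 with TAC and no drug, and 5 with sham surgery and no drug (Sham). The inhibitors were given for 4 weeks from 1 week after surgery. The labels give neither dose, vehicle, sex nor age, and no sham-operated animal received an inhibitor.

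Natriuretic peptides are hormones that cardiomyocytes release when the heart wall is stretched. Atrial natriuretic peptide (ANP, from Nppa) and brain natriuretic peptide (BNP, from Nppb) are made as longer precursors, cut to their active forms by proteases, and bind a receptor on the cell surface that makes cyclic GMP. Cyclic GMP is broken down by phosphodiesterases, among them the targets of both drugs, PDE5A and PDE9A. In the healthy adult ventricle Nppa is weakly expressed, and its return under load is a classical mark of hypertrophy.

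The libraries held 22.7 to 41.0 M expected counts, so that 3 counts, taken as the smallest level that could be told from 0, corresponded to 0.0781 to 0.135 counts per M (CPM, scaled between libraries by the TMM method). The defining markers of ventricular cardiomyocytes were abundant in every library, at a summed 128180 to 222506 CPM over 12 genes. The atrial light chain Myl7 was at or below 0.503 CPM in 20 libraries and at 11.9 CPM in TAC+PDE9A-I library 1. That library also held 2.42 CPM of the atrial gene Sln and 13.2 CPM of Myl4, and the atrial factor Bmp10 was at 3 counts or fewer in every library. The ribosomal RNA gene Rn45s took 0.326% and 0.416% of the counts in TAC+PDE9A-I libraries 1 and 4, against 0.192 to 0.278% in the other 19. Fold change tests of the 7 genes that rest on the TAC+PDE9A-I group were therefore also run without library 1 and without both. Part of these values are given below. In whole tissue, a change in the number of cells of a type cannot be told apart from a change in the RNA each cell holds.

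After TAC the 2 cardiac peptide genes rose and both proteases fell, while none of the 3 receptors passed the test. Nppa rose with a log2 fold change of 3.98 and Nppb with one of 2.16. Corin fell by 0.67 and Furin by 0.46 on the log2 scale. These are 4 of the 7 tested genes, beside 25.2% of all genes tested (12.2% higher and 13.0% lower) at an adjusted p under 0.05 in this comparison (edgeR quasi-likelihood test, Benjamini-Hochberg adjustment over all genes tested). In all 4, no TAC library overlapped a Sham library, beside 16.5% of all genes tested.

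**Figure D1:**
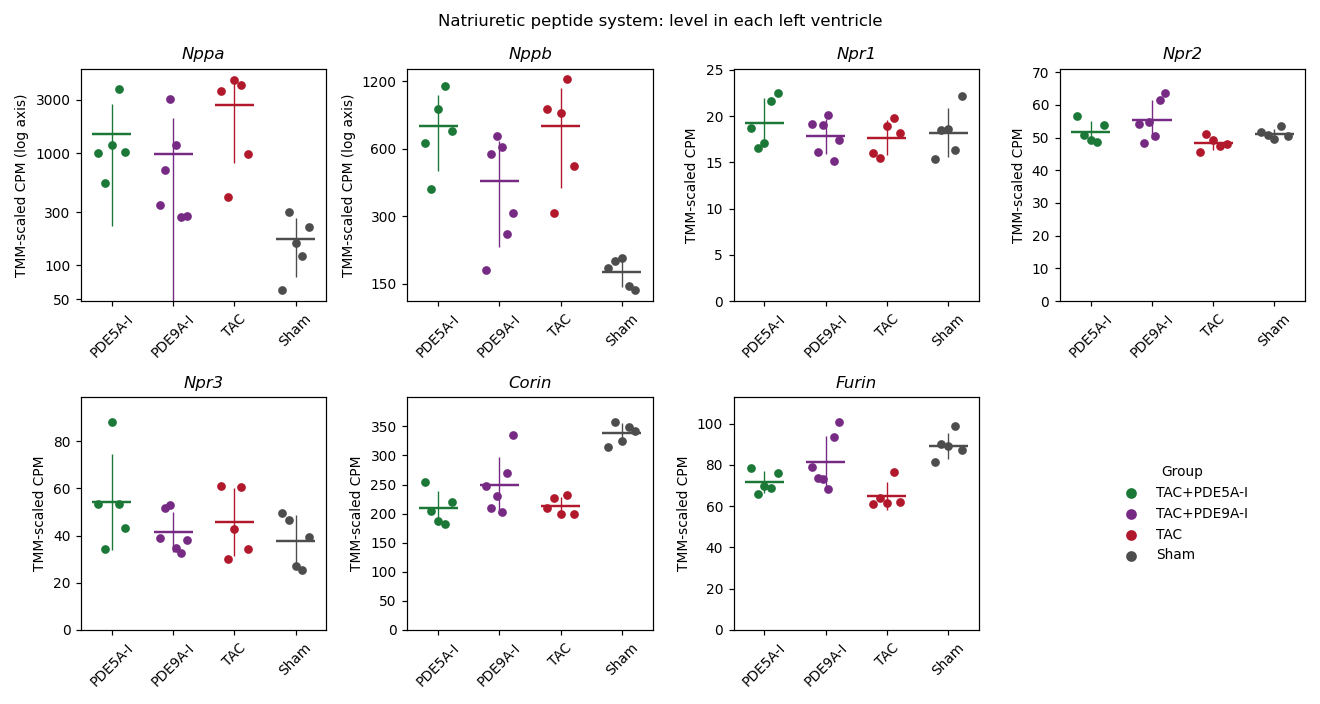
Level of the 7 tested genes in each of the 21 left ventricles, in TMM-scaled CPM (log axes for Nppa and Nppb). Points are libraries in replicate order, horizontal bars are group means and vertical lines are 1 SD either side, which for Nppa in TAC+PDE9A-I would reach below 0 and leaves the log axis. The TAC libraries lie above every Sham library for Nppa and Nppb and below every one for Corin and Furin, and the receptors overlap.

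Nppa (ENSMUSG00000041616.9, chromosome 4, 148000722 to 148002079, plus strand) and Nppb (ENSMUSG00000029019.8, chromosome 4, 147985788 to 147987205, plus strand) are neighbours on GRCm38. They are 13.5 kb apart, with no other annotated gene between them. The DNA before their start sites is shown because both genes rose together and are known targets of the same cardiac transcription factors. Capitals mark the matches to the motifs named below, over the 250 bases before the RefSeq start site on GRCm38.p6, at chr4:148000472-148000721 for Nppa and chr4:147985650-147985899 for Nppb, both on the plus strand. The RefSeq start of Nppa is that of the GENCODE gene, and the RefSeq start of Nppb lies 112 bases inside it.
Nppa: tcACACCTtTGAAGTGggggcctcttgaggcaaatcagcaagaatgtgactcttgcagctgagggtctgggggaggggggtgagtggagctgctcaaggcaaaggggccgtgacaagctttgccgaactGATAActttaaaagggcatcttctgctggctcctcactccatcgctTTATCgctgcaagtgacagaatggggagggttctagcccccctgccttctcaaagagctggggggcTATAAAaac
Nppb: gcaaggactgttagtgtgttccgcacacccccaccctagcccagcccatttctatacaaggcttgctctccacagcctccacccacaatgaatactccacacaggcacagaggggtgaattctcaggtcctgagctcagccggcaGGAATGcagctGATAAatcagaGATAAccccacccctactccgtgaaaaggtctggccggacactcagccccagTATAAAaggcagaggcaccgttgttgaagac

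Both promoters held the TATA box letters TATAAA and 2 copies of GATAA, the core that GATA factors bind. The position of TATAAA differed: it began 9 bases before the RefSeq start site in Nppa and 31 bases before it in Nppb. TATAAA was found in 13.6% of 32851 RefSeq mouse promoters and at least 2 copies of GATAA in 5.27%, searched on both strands from 250 bases before to 50 after the start. Nppa also held TNAAGTG, the core bound by NKX2-5 (11.5% of promoters), and AGGTGT, a site of T-box factors (13.7%), which is printed as its reverse complement. Nppb held CATTCC, the M-CAT core bound by TEAD factors (14.7%), also as its reverse complement. Neither held TGANTCA (AP-1, 7.81%), CCWWWWWWGG (CArG box, 1.63%) or CTAWWWWTAR (MEF2 box, 1.86%). Here W is A or T, and R is A or G. Sites that depart from the letters of a motif were not searched for. No match overlapped another. Of the other members, Nppc and Furin held TATAAA, Npr2 held AGGTGT, Furin held TNAAGTG in 2 places, and Npr1, Npr3 and Corin held none of the 8 motifs. All 8 genes had a RefSeq promoter, Furin with 2. The Furin matches all lay in the promoter at chr7:80405387-80405686, and its other promoter held none. A match shows only that the letters are present.

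Nppa, the ANP gene, measured 3574, 409, 4542, 4078 and 981 CPM in TAC libraries 1 to 5, against 59.8, 299.5, 157, 121 and 222 CPM in Sham libraries 1 to 5. TAC libraries 1, 3 and 4 stood far above libraries 2 and 5, and the lowest TAC library still exceeded the highest Sham library. The mean was 2717 ± 1888 CPM in TAC and 172 ± 92.5 CPM in Sham (SD, n = 5 each), and the log2 fold change of 3.98 had an SE of 0.81, a 95% interval of 2.29 to 5.67 and an adjusted p of 0.00402 (edgeR). The antisense gene Gm13054 overlaps Nppa on the opposite strand and has no row in the table. The kit kept the strand of the RNA, but no source used here says whether the counting did.

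Nppb, the BNP gene, measured 899, 309, 864, 1226 and 503 CPM in TAC libraries 1 to 5, against 177, 190.3, 195, 146 and 139.9 CPM in Sham libraries 1 to 5. The same TAC libraries, 1, 3 and 4, were high, and again the groups did not overlap. The Sham libraries were close to each other, with a highest level 1.39 times the lowest, where Nppa spanned 5.01-fold in the same hearts. For Nppb the log2 fold change of 2.16 had an SE of 0.39, a 95% interval of 1.36 to 2.97 and an adjusted p of 0.00262 (edgeR).

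Overloaded hearts differed widely from each other in Nppa. The highest TAC library held 11.1 times the lowest, and the highest TAC+PDE9A-I library 11.5 times the lowest, where TAC+PDE5A-I libraries spanned 6.89-fold. Nppb spanned 3.97-fold in TAC, 3.94-fold in TAC+PDE9A-I and 2.87-fold in TAC+PDE5A-I. The degree of constriction in each animal is not given in the labels.

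Nppc, which encodes C-type natriuretic peptide, a product of endothelium and cartilage more than of cardiomyocytes, was near the limit of detection. It had 0 to 2 counts in every library and 10 counts in all, with 13 of 21 libraries at 0. Its counts summed to 1 in TAC+PDE5A-I, 3 in TAC+PDE9A-I, 3 in TAC and 3 in Sham, and no fold change is given. At this depth a difference between groups was not detectable.

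Per kilobase of annotated exon the 2 peptide genes stood first in every group. In TAC, Nppa averaged 3141 ± 2183 CPM per kb and Nppb 973 ± 460 CPM per kb (SD, n = 5), and their ranges overlapped. In Sham, Nppb averaged 217 ± 32.2 and Nppa 199 ± 107 CPM per kb, also overlapping. Corin followed in each group with no overlap on either side, at 39.4 ± 2.89 CPM per kb in TAC and 62.6 ± 3.17 in Sham. Npr2 came next at 10.3 ± 0.43 CPM per kb in TAC and 10.97 ± 0.31 in Sham, then Furin at 7.08 ± 0.72 CPM per kb in TAC and 9.73 ± 0.68 in Sham. The ranges of Npr2 and Furin overlapped in TAC+PDE9A-I and Sham, and those of Furin and Npr3 in TAC+PDE5A-I. Npr3, at 4.88 ± 1.55 CPM per kb in TAC and 4.01 ± 1.184 in Sham, overlapped Npr1 in every group, at 3.70 ± 0.39 in TAC and 3.81 ± 0.55 in Sham.

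Npr1 encodes the receptor guanylate cyclase through which ANP and BNP act (chromosome 3, 90450591 to 90465866, minus strand). It ranged from 15.5 to 19.8 CPM in TAC and from 15.4 to 22.2 CPM in Sham, and the groups overlapped throughout. Its log2 fold change was -0.04 (SE 0.11, 95% interval -0.27 to 0.19, adjusted p = 0.807, edgeR). This interval does not reach the sizes of change seen for Corin and Furin.

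Npr2 encodes the guanylate cyclase receptor for C-type natriuretic peptide (chromosome 4, 43631935 to 43651244, plus strand). It measured 45.6, 51.0, 49.2, 47.5 and 48.0 CPM in TAC libraries, against 51.6, 50.7, 49.7, 53.5 and 50.5 CPM in Sham libraries. TAC library 2 lay within the Sham range and the other 4 TAC libraries below it. Its change of -0.09 on the log2 scale (SE 0.07, 95% interval -0.22 to 0.05) did not pass the test (adjusted p = 0.350, edgeR).

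Npr3 encodes the clearance receptor, which takes up and degrades all the natriuretic peptides and carries no cyclase (chromosome 15, 11839896 to 11907287, minus strand). It varied about 2-fold within groups, from 30.0 to 61.2 CPM in TAC and from 25.3 to 49.8 CPM in Sham. Its log2 fold change was 0.29 (SE 0.25, 95% interval -0.24 to 0.82, adjusted p = 0.420, edgeR), and this interval also holds a rise of 0.82. Npr3 also marks endocardium, the inner lining of the heart. Of the 7 tested genes of an endocardial marker list that includes Npr3, 0 passed the test in TAC against Sham, beside 25.2% of all genes tested. The list's summed level was 141 to 248 CPM in TAC and 105 to 189 CPM in Sham. The part of this lining in the spread of Npr3 was not tested.

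Corin, the cardiomyocyte membrane protease that cuts the ANP precursor (ENSMUSG00000005220.10, chromosome 5, 72300025 to 72504473, minus strand), measured 209, 227, 199, 231 and 199 CPM in TAC libraries 1 to 5, against 315, 357, 326, 350 and 342 CPM in Sham libraries 1 to 5. The highest TAC library was well below the lowest Sham library, and neither group spread much. The log2 fold change of -0.67 had an SE of 0.11, a 95% interval of -0.90 to -0.43 and an adjusted p of 0.00221 (edgeR), the 62nd lowest p of the 14135 genes tested. The summed ventricular cardiomyocyte markers were 128180 to 189720 CPM in TAC and 189298 to 222506 CPM in Sham. Of their 12 genes 6 fell, beside 13.0% of all genes tested. Ttn (mean 89545 CPM in TAC and 98889 in Sham) and Myh6 (27455 and 45267 CPM) weighed most in this sum. Myh6 is also followed below as a gene of the load response, so the sum does not measure cardiomyocyte content alone. The part of these markers in the fall of Corin was not tested.

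Furin, the proprotein convertase of the secretory pathway that cuts the BNP precursor among many others (ENSMUSG00000030530.15, chromosome 7, 80388585 to 80405436, minus strand), measured 60.9, 63.7, 61.4, 76.7 and 62.0 CPM in TAC libraries 1 to 5, against 81.5, 89.9, 88.9, 98.7 and 87.3 CPM in Sham libraries 1 to 5. TAC library 4 stood above the other TAC libraries and still below every Sham library. For Furin the log2 fold change of -0.46 had an SE of 0.09, a 95% interval of -0.66 to -0.26 and an adjusted p of 0.00402 (edgeR). Antisense genes without a row in the table overlap Npr1, Npr2, Corin and Furin as well, and the limit given for Nppa holds for them.

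The ratio of Nppa to Nppb within a library does not depend on how libraries are scaled. Its median was 3.33 in TAC (1.33 to 5.26) and 0.825 in Sham (0.338 to 1.59). The mean log2 ratio differed by 1.66, with an unadjusted p of 0.0238 (two-sided exact permutation test, n = 5 and 5, smallest possible p 0.00794), and the difference did not pass after adjustment over the 12 ratio tests (adjusted p = 0.286). The median was 1.42 in TAC+PDE5A-I and 1.61 in TAC+PDE9A-I, and no comparison of these groups with TAC or Sham passed, with or without TAC+PDE9A-I library 1. The ratio of the clearance receptor to the signalling receptor, Npr3 to Npr1, had a median of 2.26 in TAC and 1.78 in Sham, and the difference of 0.32 in mean log2 ratio did not pass (exact permutation p = 0.317, adjusted p = 0.544).

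With the PDE5A inhibitor the same 4 genes were called against Sham as after TAC alone: Nppa and Nppb rose, Corin and Furin fell, and in none of the 4 did a library overlap Sham. These were 4 of 7 tested genes beside 14.6% of all genes tested that were called (6.81% higher and 7.80% lower) and 15.6% that did not overlap. Against TAC itself, 0 of the 7 genes were called, beside 0.0141% of all genes tested, and all 7 overlapped TAC, beside 0.990% of all genes that did not. None of the 7 had an unadjusted p under 0.05, by edgeR, beside 5.17% of all genes tested, and DESeq2 called none. Comparisons with TAC and of TAC with Sham share the TAC libraries, so their values are not independent of each other. All comparisons with Sham use the same Sham libraries, so calls repeated between them are not independent either.

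In TAC+PDE5A-I libraries 1 to 5 Nppa measured 1004, 544, 1192, 3748 and 1019.8 CPM, all above the highest Sham library. Library 4 stood apart from the other 4. In these mice the log2 fold change was 3.13 against Sham (SE 0.78, adjusted p = 0.0166) and -0.86 against TAC (SE 0.72, 95% interval -2.37 to 0.65, adjusted p = 0.962, edgeR). Without library 4 the value against Sham was 2.46 and no longer passed (adjusted p = 0.0651).

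Nppb in TAC+PDE5A-I libraries measured 635, 397, 898, 1140 and 716 CPM, all within the range of the TAC libraries. The log2 fold change was 2.16 against Sham (SE 0.39, adjusted p = 0.00446) and -0.01 against TAC (SE 0.37, 95% interval -0.78 to 0.77, adjusted p = 1, edgeR). The interval against TAC leaves room for a difference either way, so equality is not shown.

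Corin in TAC+PDE5A-I libraries measured 255, 205, 187, 182 and 221 CPM, with log2 fold changes of -0.69 against Sham (SE 0.11, adjusted p = 0.00313) and -0.02 against TAC (95% interval -0.26 to 0.21, adjusted p = 0.988, edgeR). Furin measured 78.3, 65.7, 69.9, 68.8 and 76.0 CPM, with log2 fold changes of -0.32 against Sham (SE 0.09, adjusted p = 0.0332) and 0.14 against TAC (95% interval -0.05 to 0.34, adjusted p = 0.962, edgeR). The call for Furin against Sham was lost without any one of Sham libraries 2, 3 or 4 or TAC+PDE5A-I libraries 2, 3, 4 or 5, at log2 fold changes of -0.33 to -0.28. With a term in the model for the leading digit of the ear tag number, Nppa (2.74, adjusted p = 0.115) and Furin (-0.33, adjusted p = 0.0927) were not called against Sham. These digits are spread unevenly over the groups, and Sham and TAC+PDE5A-I share only some of them. The term therefore partly overlaps with group, and the labels do not say that the digits mark a batch.

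Of the receptors, Npr3 ranged from 34.2 to 88.0 CPM in TAC+PDE5A-I, with library 3 the highest of all 21 libraries. Its log2 fold change was 0.53 against Sham (SE 0.25, adjusted p = 0.150) and 0.25 against TAC (SE 0.25, adjusted p = 0.962, edgeR). Npr1 (16.5 to 22.4 CPM) and Npr2 (48.5 to 56.5 CPM) had log2 fold changes of 0.12 and 0.10 against TAC, with 95% intervals of -0.10 to 0.35 and -0.04 to 0.24.

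With the PDE9A inhibitor, each of the 4 genes that TAC changed had some libraries within the Sham range and others within the TAC range. Against Sham, Nppb rose and Corin fell, 2 of 7 tested genes beside 3.82% of all genes tested (2.17% higher and 1.65% lower). In all 7 genes the libraries overlapped Sham, beside 3.47% of all genes tested that did not. Nppa and Furin were not called. Against TAC, 0 of the 7 genes were called, beside 0.00707% of all genes tested, and all 7 overlapped TAC, beside 0.509% that did not. By edgeR, 4 had an unadjusted p under 0.05, namely Nppa, Nppb, Npr2 and Furin, beside 14.6% of all genes tested, and DESeq2 called none.

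**Figure D2:**
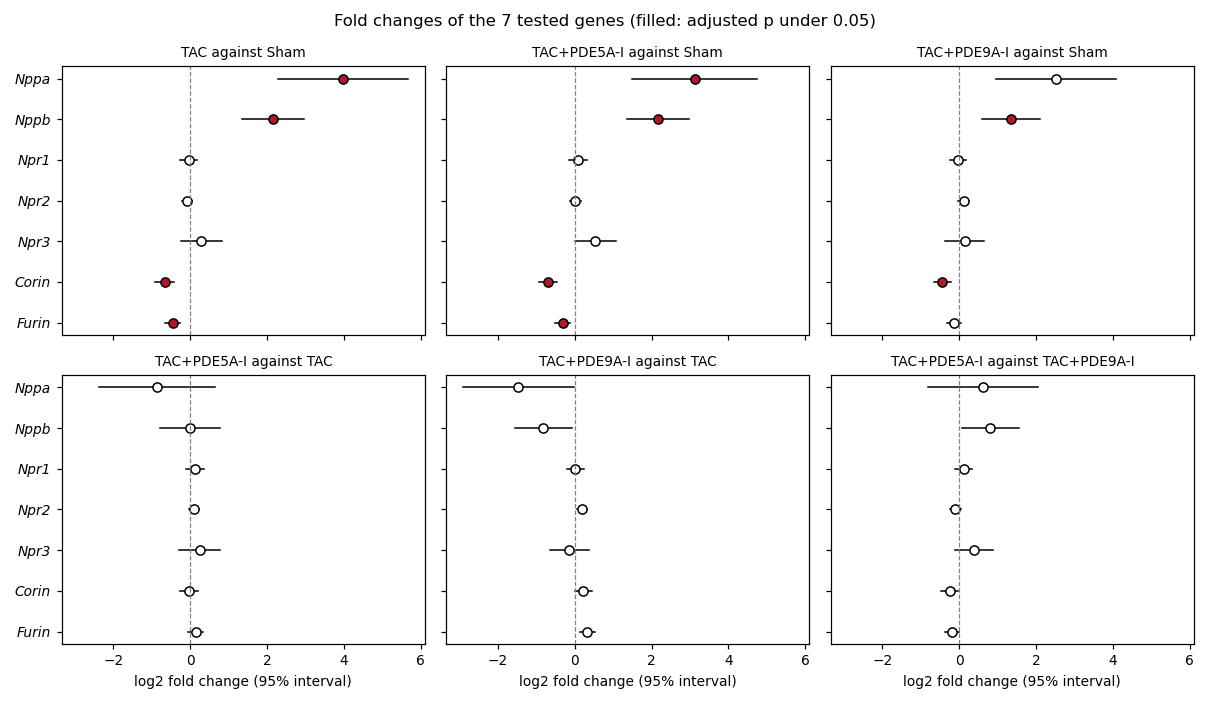
Log2 fold change of each tested gene with its 95% interval in the 6 comparisons, filled where the adjusted p is under 0.05 (edgeR). Nppa, Nppb, Corin and Furin are filled against Sham in TAC and TAC+PDE5A-I, Nppb and Corin in TAC+PDE9A-I, and no gene is filled against TAC or between the inhibitors.

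Nppa in TAC+PDE9A-I ranged from 268 to 3090 CPM with a median of 532, and 4 of 6 libraries exceeded the highest Sham library. Library 3, at 3090 CPM, was more than 2 times the next. Against Sham the log2 fold change was 2.52 (SE 0.74, 95% interval 0.96 to 4.07, adjusted p = 0.0576), and against TAC it was -1.47 (SE 0.69, 95% interval -2.91 to -0.02, unadjusted p = 0.0467, adjusted p = 0.338, edgeR). Library 1, the one with atrial Myl7, held 346 CPM of Nppa, in the lower part of its group. Without it the values were 2.69 against Sham (adjusted p = 0.0661) and -1.29 against TAC (adjusted p = 0.4998).

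Nppb in TAC+PDE9A-I ranged from 173 to 683 CPM with a median of 439, and 5 of 6 libraries exceeded the highest Sham library. The lowest was library 1, at 173 CPM within the Sham range. The log2 fold change of Nppb was 1.35 against Sham (SE 0.37, adjusted p = 0.0476) and -0.81 against TAC (SE 0.35, 95% interval -1.55 to -0.08, unadjusted p = 0.0324, adjusted p = 0.309, edgeR). Without library 1 it was 1.52 against Sham (adjusted p = 0.0455) and -0.65 against TAC (adjusted p = 0.479). The call against Sham was lost without any one Sham library, without TAC+PDE9A-I library 3 (adjusted p = 0.112) and without library 4 (adjusted p = 0.106).

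Corin in TAC+PDE9A-I ranged from 203 to 336 CPM with a median of 238, and all but library 6 were below the lowest Sham library. For Corin the log2 fold change was -0.44 against Sham (SE 0.11, adjusted p = 0.0336) and 0.23 against TAC (SE 0.11, 95% interval -0.0021 to 0.45, adjusted p = 0.343, edgeR). The call against Sham was lost without any one Sham library and without TAC+PDE9A-I library 1, 3 or 4, at adjusted p-values of 0.0501 to 0.0855. Without library 1 the values were -0.44 against Sham (adjusted p = 0.0598) and 0.23 against TAC (adjusted p = 0.473, edgeR).

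Furin in TAC+PDE9A-I ranged from 68.5 to 100.6 CPM with a median of 76.3. Libraries 5 and 6, at 93.5 and 100.6 CPM, lay within or above the Sham range and the other 4 below it. The log2 fold change of 0.33 against TAC (SE 0.09, 95% interval 0.14 to 0.51) had an unadjusted p of 0.00189, rank 91 of the 14135 genes, and an adjusted p of 0.254 (edgeR). Against Sham it was -0.13 (SE 0.09, adjusted p = 0.345). Without library 1 the values were 0.33 against TAC (adjusted p = 0.427) and -0.13 against Sham (adjusted p = 0.440, edgeR). Without libraries 1 and 4 the value against Sham was -0.066 (adjusted p = 0.770, edgeR).

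Npr2 in TAC+PDE9A-I ranged from 48.3 to 63.5 CPM with a median of 54.3, and libraries 5 and 6 were again the highest, at 61.4 and 63.5 CPM. Its log2 fold change was 0.20 against TAC (SE 0.06, 95% interval 0.07 to 0.33, unadjusted p = 0.00512, adjusted p = 0.254, edgeR) and 0.11 against Sham (SE 0.06, adjusted p = 0.250). Without library 1 it was 0.21 against TAC (adjusted p = 0.427) and 0.12 against Sham (adjusted p = 0.280, edgeR). Npr1 (15.2 to 20.1 CPM) and Npr3 (32.8 to 52.8 CPM) had log2 fold changes of 0.01 and -0.14 against TAC, with 95% intervals of -0.21 to 0.23 and -0.65 to 0.37. Without library 1 these were -0.0099 and -0.12.

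Sildenafil and PF-04449613 were set against each other in 1 comparison, with neither dose given, so the doses cannot be called matched. Of the 7 genes 0 were called by edgeR or DESeq2, beside 0.00707% of all genes tested by edgeR, and all 7 overlapped, beside 0.757% that did not. Nppb differed by 0.81 on the log2 scale, TAC+PDE5A-I minus TAC+PDE9A-I (SE 0.35, 95% interval 0.07 to 1.54, unadjusted p = 0.0335, adjusted p = 0.434), and Corin by -0.25 (SE 0.11, 95% interval -0.48 to -0.02, unadjusted p = 0.0345, adjusted p = 0.435, edgeR). Nppa differed by 0.61 (95% interval -0.82 to 2.04), Furin by -0.18 (-0.37 to 0.01), Npr3 by 0.39 (-0.12 to 0.89), Npr1 by 0.11 (-0.10 to 0.33) and Npr2 by -0.10 (-0.23 to 0.03). Without TAC+PDE9A-I library 1 the differences were 0.64 for Nppb (adjusted p = 0.660), -0.25 for Corin, 0.44 for Nppa, -0.19 for Furin, 0.37 for Npr3, 0.13 for Npr1 and -0.10 for Npr2, and none was called (edgeR). The interval for Nppa is wide, and its value turned to -0.06 without TAC+PDE5A-I library 4.

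Among the 16 TAC-operated hearts, with or without drug, the genes fell into sets that varied together. Pearson's r was taken on log2 CPM with permutation p-values, adjusted over all 21 pairs of the 7 genes. Nppa and Nppb had r = 0.89 (permutation p = 1e-05, the smallest that 100000 permutations can give, adjusted p = 0.00021, Spearman's rho = 0.91). It was 0.88 without the 2 libraries farthest from the median of Nppa and 0.90 with group means removed. These values share the library and its scaling.

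**Figure D3:**
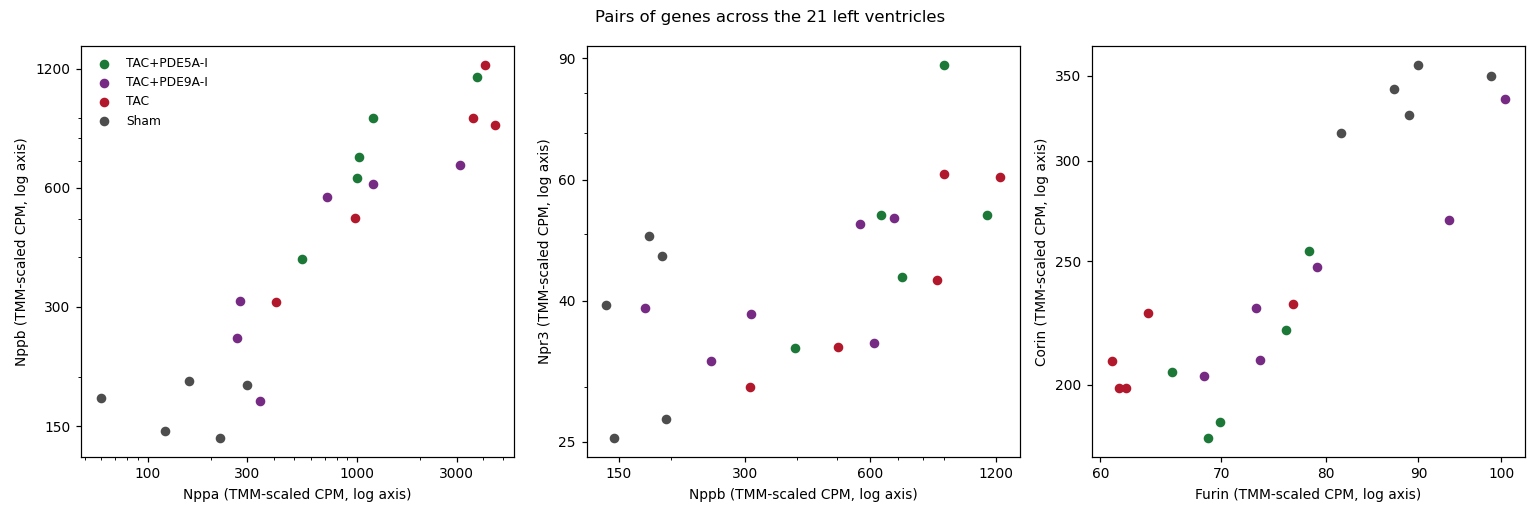
Levels of 3 pairs of genes across the 21 left ventricles on log axes, in TMM-scaled CPM, each point 1 library coloured by group. Among the 16 TAC-operated libraries r was 0.89 for Nppa and Nppb, 0.69 for Nppb and Npr3, and 0.84 for Corin and Furin.

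The clearance receptor followed the peptides: Npr3 had r = 0.69 with Nppb (permutation p = 0.00287, adjusted p = 0.0121, rho = 0.81) and 0.58 with Nppa (adjusted p = 0.0410, rho = 0.64). Without the 2 libraries farthest from the median these were 0.73 and 0.60. Corin, Furin and Npr2 formed the other set, with r = 0.84 for Corin and Furin (permutation p = 7e-05, adjusted p = 0.000473, rho = 0.76), and 0.85 for Npr2 with either (adjusted p = 0.000473 for both, rho = 0.66 and 0.64). TAC+PDE9A-I libraries 5 and 6, which had the highest Npr2 and Furin, weigh in these: without them r was 0.60, 0.65 and 0.61. With group means removed r was 0.69 for Npr3 with Nppb, 0.61 for Npr3 with Nppa, 0.86 for Corin with Furin, 0.88 for Npr2 with Corin and 0.76 for Npr2 with Furin.

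Between the peptides and this other set, 4 of 6 pairs were inversely related and passed. Nppa had r = -0.64 with Npr2 (permutation p = 0.00701, adjusted p = 0.0245, rho = -0.60) and -0.58 with Corin (adjusted p = 0.0401, rho = -0.56 with adjusted p = 0.0588). Nppb had r = -0.61 with Npr2 (adjusted p = 0.0357, rho = -0.60) and -0.58 with Corin (adjusted p = 0.0401, rho = -0.49 with adjusted p = 0.104). Nppa and Furin did not pass (r = -0.54, adjusted p = 0.0567), nor did Nppb and Furin (r = -0.43, adjusted p = 0.142). Npr3 passed with no gene of this set, at r = -0.37 with Npr2 (adjusted p = 0.216), -0.31 with Corin (adjusted p = 0.320) and -0.092 with Furin (adjusted p = 0.773). No pair with Npr1 passed. Without the 2 libraries farthest from the median of the peptide, r was -0.61 and -0.63 for Nppa with Npr2 and Corin, and -0.54 and -0.51 for Nppb with Npr2 and Corin. With group means removed these 4 were smaller in size than in the pooled libraries, at -0.50, -0.49, -0.50 and -0.43. Without TAC+PDE9A-I library 1, Nppa no longer passed with Npr3 (r = 0.57, adjusted p = 0.0540) or Corin (-0.56, adjusted p = 0.0540), Nppb passed with Npr1 (0.62, adjusted p = 0.0407), and the other 18 pairs kept their side of the threshold (permutation tests, an alternative chosen after seeing the data).

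Across all 21 libraries, the genes most like each member by Spearman's rho are given as a description. For Nppa they were Wwtr1 (0.98), the TAZ coactivator of the Hippo pathway, Panx1 (0.98), a membrane channel, and Cyb5r3 (0.97), a cytochrome b5 reductase, with 0.97, 0.96 and 0.96 over the 16 TAC-operated libraries. For Nppb they were Gdf15 (0.96), a secreted stress-induced factor, Clic5 (0.95) and the kinesin Kif5b (0.94), with 0.94, 0.96 and 0.91. Nppb itself was 154th of 14134 genes in likeness to Nppa, and Nppa 18th in likeness to Nppb. Other genes thus followed Nppa more closely than its neighbour did.

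Corin was most like Tbx5 (0.90), a T-box transcription factor, Adam22 (0.89) and Furin (0.87), with lower values of 0.79, 0.81 and 0.76 over the 16 TAC-operated libraries, and Corin stood 4th in likeness to Furin. Furin was most like Mpp2 (0.88), Map7d1 (0.87) and Ints1 (0.87), with 0.82, 0.82 and 0.75 over the 16. Npr2 was most like Aff1 (0.88), Jmy (0.87) and Zfyve26 (0.86), with 0.90, 0.86 and 0.89 over the 16. Npr3 was most like Fam20c (0.82), Glipr2 (0.79) and Plac9a (0.78), with 0.84, 0.72 and 0.85 over the 16. Npr1 was most like Syde1 (0.86), the periaxin gene Prx (0.84) and Tgfb1i1 (0.83), with 0.88, 0.88 and 0.85 over the 16.

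Of 5 genes beside the peptide locus that were followed, 1 was called after TAC, beside 25.2% of all genes tested. All 5 had smaller log2 fold changes than the peptides. Clcn6, a chloride and proton exchanger of late endosomes, rose to 8.499 ± 1.05 CPM in TAC, against 7.02 ± 0.28 CPM in Sham (log2 fold change 0.28, SE 0.09, adjusted p = 0.0249, edgeR; SD, n = 5 each). Its start site is 38.1 kb from that of Nppa, but its other end is nearer. Clcn6 lies on the minus strand at 148004259 to 148038821, and Nppa ends at 148002079. The other 4 were not called: Mfn2 at -0.27 (adjusted p = 0.0544, edgeR), Plod1 at -0.09, Miip at -0.07 and Agtrap at 0.04. Of the 5, 0 were called without Sham library 4 or TAC library 3. There were 2 calls without Sham library 3 or TAC library 2, by DESeq2 or with the replicate block. Clcn6 was also called in TAC+PDE9A-I against Sham (0.33, adjusted p = 0.0336, edgeR), beside 3.82% of all genes tested. There 0 of the 5 were called without any one Sham library or without TAC+PDE9A-I library 1, 3 or 4. None of the 5 was called in TAC+PDE5A-I against Sham, beside 14.6% of all genes tested, or against TAC.

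**Figure D4:**
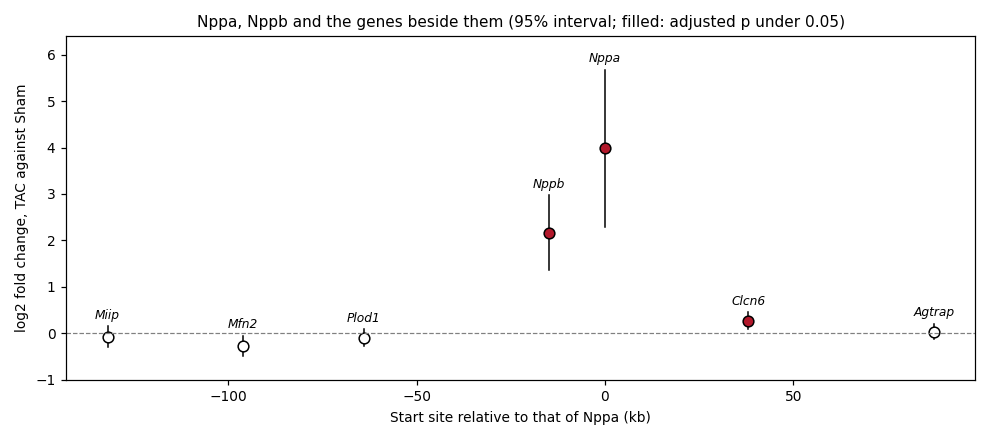
Log2 fold change in TAC against Sham, with its 95% interval, of Nppa, Nppb and 5 genes beside them, placed by start site in kb from that of Nppa along chromosome 4. Filled points had an adjusted p under 0.05. The peptide genes stand at 3.98 and 2.16, and the 5 others lie between -0.27 and 0.28.

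Of 12 genes listed for the handling of secreted peptides, not of natriuretic peptides alone, 7 were tested. After TAC 1 rose and 1 fell, with a median log2 fold change of -0.023 beside -0.0013 over all genes tested. These 2 calls of 7 are a share near the 25.2% of all genes tested. Pam, the enzyme that amidates peptide hormones, rose to 1814 ± 386 CPM in TAC, against 988 ± 39.5 CPM in Sham (log2 fold change 0.88, SE 0.16, adjusted p = 0.00262). Mme, which encodes neprilysin, the protease that degrades ANP, fell to 7.19 ± 3.61 CPM in TAC, against 17.6 ± 2.05 CPM in Sham (-1.30, SE 0.34, adjusted p = 0.0125, edgeR; SD, n = 5 each). Pam also rose in TAC+PDE5A-I against Sham (0.74, adjusted p = 0.00883), and no gene of this list was called in TAC+PDE9A-I against Sham.

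Of 22 listed genes of cyclic GMP production, breakdown and action, 21 were tested, 4 rose and 3 fell after TAC, beside 12.2% of all genes tested that rose and 13.0% that fell, with a median log2 fold change of 0.15. Rgs2, which shortens G protein signals and is a target of the cyclic GMP-dependent kinase, fell to 14.8 ± 5.62 CPM in TAC, against 42.7 ± 5.55 CPM in Sham (-1.53, SE 0.28, adjusted p = 0.00262). Kcnma1, the pore of the large-conductance potassium channel, rose to 6.30 ± 3.92 CPM in TAC, against 0.429 ± 0.278 CPM in Sham (3.84, SE 0.86, adjusted p = 0.00603). Prkg1, the cyclic GMP-dependent kinase I, rose by a log2 fold change of 0.35 (SE 0.08, adjusted p = 0.00655), and the phosphodiesterase Pde3a fell by 0.57 (SE 0.14, adjusted p = 0.00884, edgeR). Without TAC library 3 or 4 the calls in this list were 4 in place of 7.

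The same list had 2 rises and 3 falls in TAC+PDE5A-I against Sham and 2 rises and 1 fall in TAC+PDE9A-I against Sham, beside 14.6% and 3.82% of all genes tested that were called either way. Rgs2 fell in both (-1.33, adjusted p = 0.00798, and -1.03, adjusted p = 0.0340), and Prkg1 and Kcnma1 rose in both. In TAC+PDE5A-I against Sham the 5 calls were 2 or 3 without any one of Sham libraries 1 to 4 or TAC+PDE5A-I libraries 3 to 5. In TAC+PDE9A-I against Sham the 3 calls were 0 to 4, depending on the library left out. No gene of the list was called against TAC or between the inhibitors. In TAC against Sham the drug targets themselves were not called, with log2 fold changes of 0.03 for Pde5a (adjusted p = 0.848) and 0.46 for Pde9a (adjusted p = 0.205, edgeR), both named here as the drugs' targets and not by size of change.

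Of 22 listed transcription regulators known to act on Nppa or Nppb, all were tested, 2 rose and 9 fell after TAC, beside 12.2% of all genes tested that rose and 13.0% that fell, with a median log2 fold change of -0.14. Ankrd1, a stretch-responsive cofactor, rose to 5344 ± 1224 CPM in TAC, against 1322 ± 192 CPM in Sham (2.02, SE 0.31, adjusted p = 0.00186). Tbx5, an activator of Nppa, fell to 12.53 ± 1.7998 CPM in TAC, against 24.1 ± 3.41 CPM in Sham (-0.95, SE 0.16, adjusted p = 0.00208). Gata6 fell by 0.46 and the T-box factor Tbx20 rose by 0.38 (adjusted p = 0.00687 and 0.0120, edgeR). The 11 calls became 5 without TAC library 3 or 4, 6 without Sham library 2 and 7 without TAC library 1 or with the ear tag term.

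In TAC+PDE5A-I against Sham, 2 regulators rose (Ankrd1 and Gata4) and 4 fell, Tbx5 and Myocd among them, beside 14.6% of all genes tested that were called. The 6 calls were 3 without Sham library 1 or 4 or TAC+PDE5A-I library 3 or 4. In TAC+PDE9A-I against Sham, Ankrd1 rose (1.43, adjusted p = 0.0246, edgeR) and none fell, beside 3.82% of all genes tested that were called. Against TAC no regulator was called with all libraries. Without TAC+PDE9A-I library 2, 1 regulator was called in TAC+PDE9A-I against TAC, where the calls over all genes were 46 in place of 1. With the ear tag term, the calls in TAC+PDE5A-I against Sham were 2 among the regulators and 0 among the cyclic GMP genes, the peptide-handling genes and the 5 neighbours. Those in TAC+PDE9A-I against Sham were 0 in each of these lists. Without TAC+PDE9A-I libraries 1 and 4 the calls in that group against Sham were also 0 in each.

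Other genes of the ventricular load response were called too. Whether they followed the peptides from library to library was not tested. After TAC, Myh7 (beta myosin heavy chain), Acta1 (skeletal actin) and Ankrd1 rose by log2 fold changes of 4.56, 2.92 and 2.02, and Atp2a2 (the calcium pump SERCA2) and Myh6 (alpha myosin heavy chain) fell by 0.86 and 0.72. The same 5 were called in TAC+PDE5A-I against Sham, and the 3 rises alone in TAC+PDE9A-I against Sham. Over all genes tested, 25.2%, 14.6% and 3.82% were called in TAC, TAC+PDE5A-I and TAC+PDE9A-I against Sham. Without any one of Sham libraries 1 to 4 or TAC+PDE5A-I libraries 3 to 5, 3 of the 5 were called in TAC+PDE5A-I, and the 3 calls in TAC+PDE9A-I were 0 to 4, depending on the library left out, and 1 without libraries 1 and 4. With the ear tag term 2 were called in TAC+PDE5A-I and 0 in TAC+PDE9A-I. In TAC+PDE9A-I libraries 5 and 6, with the lowest Nppa of their group, Myh7 was at 592 and 432 CPM. It was at 198 to 326 CPM in Sham and 2783 to 8670 CPM in TAC. Ankrd1 was at 1882 and 1686 CPM in these libraries, the lowest of the TAC-operated hearts. Myh7 was also low in TAC+PDE5A-I libraries 1 and 2, at 380 and 420 CPM, where Nppa exceeded every Sham library. Markers of activated fibroblasts also differed: against Sham, 8 of 9 tested genes rose after TAC, 8 in TAC+PDE5A-I and 5 in TAC+PDE9A-I. Over all genes tested, 12.2%, 6.81% and 2.17% rose in these comparisons. The fibroblast counts were not followed without single libraries. The summed level of these markers was 931 to 5817 CPM in TAC and 272 to 380 CPM in Sham. It was 353 to 2894 CPM in TAC+PDE9A-I, with libraries 5 and 6 at 580 and 353 CPM. The atrial marker list did not move one way: of 4 tested genes, Dkk3 rose and Sbk2 and Kcnj3 fell after TAC, beside 25.2% of all genes tested. The summed level of the atrial list was 55.0 to 73.3 CPM in TAC and 57.1 to 62.4 CPM in Sham. The part of these cell types in the changes of the peptide and protease genes was not tested.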

How the data were processed

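The authors deposited RSEM expected counts per gene symbol, 1 table of 24054 rows and 21 libraries, not scaled between libraries (19% of values had decimals and were rounded here). The submitters' processing notes name RSEM 1.3.0, HISAT2 2.0.5, CASAVA 1.8.4, the build mm10 and DESeq2 1.18.1. Per the labels' protocols, libraries came from a stranded total RNA kit with an input of 500 ng. No source used here names the annotation. Coordinates and exon lengths are GENCODE M21 (GRCm38), and promoters are RefSeq GRCm38.p6.

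With edgeR 4.0.16 in R 4.3.3, all libraries entered a single quasi-likelihood fit with group means (filterByExpr by group, TMM, robust), and p-values were adjusted over the 14135 genes tested. "Rose", "fell" and "called" mean an adjusted p under 0.05. Levels are mean ± SD. The fit was tested on simulated data. Alternatives were DESeq2 1.42.0, other scalings, no filter, only the 2 groups compared, a term for the leading digit of the ear tag number, a replicate block, and leaving out libraries. Ratios were compared with 0.5 added to each count.

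Named genes are the members, up to 4 called genes per list and comparison, neighbours and load genes, and the 3 most like each member. 1 gene of the neighbour list is not reported here, and that list's counts leave it out. The members and lists were chosen with earlier results of these data known. Libraries of 1 group were not alike within counting noise, and each is its own animal. Of the listed genes, Irag1 was not matched. Its row was not used here.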

Additional observations from a re-analysis of the deposited data

Results flagged for a closer look

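Of 36 sets of libraries checked, each 1 group for 1 gene or ratio, 6 had 1 library far from the rest by Dixon's rule. That rule flags about 1 in 20 sets of normally distributed values. Here CPM and ratios were used without logs, where high values lie further apart, and sets share genes. The 6 are therefore not weighed against that rate. For Nppa these were TAC+PDE5A-I library 4 at 3748 CPM (its gap to the next was 0.798 of the group's range) and TAC+PDE9A-I library 3 at 3090 CPM (0.671). The same libraries stood apart in the ratio of Nppa to Nppb, at 3.29 (0.870) and 4.52 (0.696). For Furin it was TAC library 4 at 76.7 CPM (0.819), and for the ratio of Npr3 to Npr1 it was TAC+PDE5A-I library 3 at 5.14 (0.713).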

How the results depend on the processing

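After TAC the 4 calls against Sham held under all 17 alternatives, with log2 fold changes of 3.59 to 4.28 for Nppa, 1.94 to 2.37 for Nppb, -0.69 to -0.63 for Corin and -0.52 to -0.42 for Furin. The calls in TAC+PDE5A-I against Sham, 4 in the main model, were 2 with the ear tag term and 2 to 4 without single libraries. In TAC+PDE9A-I against Sham, 2 in the main model, they were 1 with no low-count filter, 0 with only the 2 groups compared, 0 with the ear tag term, 0 without libraries 1 and 4 (Nppb 1.42, adjusted p = 0.113) and 0 to 3 without single libraries. Nppa was called there with DESeq2 (adjusted p = 0.0150) and without library 2, 5 or 6. The calls against TAC and between inhibitors were 0 under every alternative run.

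Sign changes occurred in values that were not called: Nppb in TAC+PDE5A-I against TAC (0.019 with the replicate block, -0.20 to 0.23 without single libraries), Npr1 in TAC+PDE9A-I against TAC (-0.069 without libraries 1 and 4, -0.032 to 0.055 without single libraries), and, without single libraries, Corin in TAC+PDE5A-I against TAC (-0.10 to 0.028), Nppa between the inhibitors (-0.061 to 1.42), Npr1 in TAC (-0.097 to 0.039) and TAC+PDE9A-I (-0.085 to 0.050) against Sham, and Npr2 in TAC+PDE5A-I against Sham (-0.010 to 0.050). The log2 ratio differences that changed sign were Nppa to Nppb between the inhibitors (-0.23 to 0.30) and Npr3 to Npr1 in TAC+PDE5A-I against TAC (-0.12 to 0.27), TAC+PDE9A-I against TAC (-0.21 to 0.040) and between the inhibitors (-0.0024 to 0.35). The replicate block changed no call of a member. Of 15 pairs of libraries with the same number in 2 TAC-operated groups, 8 deviated together with a correlation above 0.1 (median 0.218). Of 60 such pairs with different numbers, 16 did (median -0.0637). Of 15 same-numbered pairs with Sham, 0 did, against 18 of 60 with different numbers. Over all groups, Sham included, libraries correlated best with their own number in 8 of 60 checks, and the numbers were not taken to pair the libraries. That check was not run on the TAC-operated groups alone. The cause of these changes was not tested.

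Over all genes, calls in TAC against Sham were 3558 (4152 with DESeq2, 1781 to 4440 without single libraries, lowest without TAC library 4). In TAC+PDE5A-I against Sham they were 2066 (2806 with DESeq2, 276 with the ear tag term, 580 to 2274 without single libraries). In TAC+PDE9A-I against Sham they were 540 (1550 with DESeq2, 2241 with the replicate block, 329 with no low-count filter, 17 with only the 2 groups compared, 6 with the ear tag term, 18 without libraries 1 and 4, 21 to 1814 without single libraries). DESeq2 called 8, 29 and 35 genes where edgeR called 2, 1 and 1 in TAC+PDE5A-I against TAC, TAC+PDE9A-I against TAC and between the inhibitors. The scaling moved the median of all genes by less than 0.03. Depth limits Nppc alone among the 8 genes.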
